A study of Homo sapiens with 6 samples.

Results

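The genes described here are 8 transcription factors of the adrenergic state of neuroblastoma: PHOX2A, HAND2, GATA2, GATA3, ISL1, TBX2, TFAP2B and SOX11. They were found by matching the Ensembl IDs of the count table to these symbols, and each symbol matched 1 of the table's 64252 rows. All 8 were abundant enough to be tested among 18734 genes. The cells were SK-N-BE(2), a human neuroblastoma line with amplified MYCN. Bulk RNA sequencing covered 3 groups of 2 libraries, which carried BCAT1 hairpin 2, BCAT1 hairpin 1 or a control hairpin. Hairpins are short RNAs that lower the transcript they match, and BCAT1 encodes a cytosolic aminotransferase of leucine, isoleucine and valine. All groups share the line and its genotype, no other agent is named in the labels, and separate cultures are not stated for the replicates.

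Neuroblastoma arises from the sympathoadrenal lineage of the neural crest, and its cells can sit in an adrenergic or a mesenchymal state. In the adrenergic state a small group of transcription factors binds large enhancers of its own genes and of each other, a circuit that keeps the state going and works together with N-Myc. PHOX2A and ISL1 are homeodomain proteins, HAND2 is a basic helix-loop-helix protein, and GATA2 and GATA3 are zinc finger proteins. TBX2 is a T-box factor, TFAP2B an AP-2 factor of the early neural crest, and SOX11 an HMG-box factor of immature neurons. In sympathetic neurons such factors turn on the enzymes that make noradrenaline.

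Start regions are shown because members of such a circuit are described as binding each other's regulatory DNA. RefSeq sequence on GRCh38.p14 was held for 6 of the 8 members, all but TBX2 and SOX11. Each window runs from 250 bases before to 50 after an annotated start and is printed 5′ to 3′ along its gene. Where a gene had several windows, the window holding the most annotated transcript starts was taken. Capitals mark letters that match CANNTG (the general E-box, read by helix-loop-helix proteins), GATAA (read by GATA factors) or TAATTA (read by many homeodomain proteins), on either strand. The 4 shown belong to the largest fall, a smaller fall, the rise seen with both hairpins, and the gene with opposite changes by hairpin. These descriptions use values without the correction for GC content and length given below.
PHOX2A, chr11:72244127-72244426, minus strand: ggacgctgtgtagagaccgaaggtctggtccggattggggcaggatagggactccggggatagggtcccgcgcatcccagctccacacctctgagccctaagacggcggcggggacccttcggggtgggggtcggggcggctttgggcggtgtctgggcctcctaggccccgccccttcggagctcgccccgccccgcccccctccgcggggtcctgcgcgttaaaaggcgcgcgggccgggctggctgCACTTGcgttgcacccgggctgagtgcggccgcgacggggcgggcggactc
HAND2, chr4:173530180-173530479, minus strand: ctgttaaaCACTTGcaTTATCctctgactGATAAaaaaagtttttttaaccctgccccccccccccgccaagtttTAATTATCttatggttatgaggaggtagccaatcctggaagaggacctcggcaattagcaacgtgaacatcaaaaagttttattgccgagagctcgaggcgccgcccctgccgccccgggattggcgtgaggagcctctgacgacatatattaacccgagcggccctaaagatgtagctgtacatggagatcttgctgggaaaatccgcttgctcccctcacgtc
GATA3, chr10:8054438-8054737, plus strand: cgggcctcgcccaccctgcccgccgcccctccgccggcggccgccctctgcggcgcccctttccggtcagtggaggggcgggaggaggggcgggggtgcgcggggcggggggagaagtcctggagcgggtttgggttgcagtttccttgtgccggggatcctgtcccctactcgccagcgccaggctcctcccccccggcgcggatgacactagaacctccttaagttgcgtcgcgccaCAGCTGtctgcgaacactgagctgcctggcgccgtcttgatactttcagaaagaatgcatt
ISL1, chr5:51383198-51383497, plus strand: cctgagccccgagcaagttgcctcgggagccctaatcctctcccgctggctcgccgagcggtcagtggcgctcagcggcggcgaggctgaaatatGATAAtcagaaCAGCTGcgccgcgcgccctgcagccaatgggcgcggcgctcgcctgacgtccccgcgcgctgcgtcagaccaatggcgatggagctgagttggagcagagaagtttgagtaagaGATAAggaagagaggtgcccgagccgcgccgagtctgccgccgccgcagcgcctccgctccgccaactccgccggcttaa

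The HAND2 window held 3 matches to GATAA and 1 to TAATTA, which overlaps a GATAA match, and the ISL1 window held 2 matches to GATAA. Among all 35116 windows in the table, 22.7% held GATAA and 4.84% held TAATTA. The general E-box CANNTG was in 5 of the 6 member windows and in 68.7% of all windows. The stricter E-box CACGTG, to which MYC proteins bind, was in 0 of the 6 and in 7.26% of all windows. A match describes letters only and was not read as a binding site.

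Library totals ran from 32333416 to 39321388 counts. BCAT1 itself stood at 116 and 111 CPM with hairpin 2, at 55.8 and 55.3 CPM with hairpin 1, and at 459 and 475 CPM in control cells, so every knockdown library was far below both controls. CPM are the counts after scaling to a common library size with TMM, a normalisation that assumes most genes do not change. MYCN, the partner gene of the circuit, fell over both hairpins by 0.34 on the log2 scale (SE 0.04, adjusted p = 9.5e-05, edgeR), or by 0.12 after correction for GC content and length (adjusted p = 0.016, edgeR). Summed levels of 6 Schwann lineage markers were 1.82 to 3 CPM across libraries, with SOX10, named after its value was seen, at 0 counts in all. Fibroblast markers summed to 620 and 621 CPM with hairpin 2, 426 and 439 CPM with hairpin 1, and 622 and 629 CPM in control cells. Over both hairpins 5 of the 6 fibroblast markers were called lower and 0 higher, where 50% of all genes were called. By hairpin, 2 were lower and 1 higher with hairpin 2, and 5 lower and 0 higher with hairpin 1. Of all genes 49.3% were called with hairpin 2 and 49.1% with hairpin 1. Leukocyte markers, with CD3E (likewise named after its value was seen) at 0 counts in all libraries, summed to 14.4 and 17.9 CPM with hairpin 2, 29.1 and 33.7 CPM with hairpin 1, and 34.5 and 37.8 CPM in control cells, while endothelial markers summed to 6.14 to 7.43 CPM across libraries. Epithelial markers summed to 25.7 and 26.4 CPM with hairpin 2, 17.7 and 19.8 CPM with hairpin 1, and 20.2 and 20.3 CPM in control cells, and over both hairpins 3 of the 4 tested were called higher and 1 lower, where 50% of all genes were called. The part of these markers in the results below was not tested.

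The factors were transcribed at very different levels. Per kilobase of exon, PHOX2A had the highest level in control cells, 307 ± 19 CPM per kb (SD, n = 2), which ranked 104 from the top among 17476 tested genes with a known length. HAND2 followed at 108 ± 2.6, TBX2 at 62 ± 2, GATA3 at 44.5 ± 0.4, GATA2 at 33.9 ± 0.2, ISL1 at 32.7 ± 2, TFAP2B at 17.7 ± 0.0073 and SOX11 at 1.9 ± 0.016, each in CPM per kb. GATA2 and ISL1 are neighbours in this order whose control libraries overlapped, at 33.8 and 34.1 against 31.3 and 34.1 CPM per kb. SOX11 stood apart from the others, in the lower part of the range of tested genes (percentile 41.6), while the remaining 7 lay at percentile 83.2 or above. Exon lengths are those of all annotated exons joined, so a gene read from a short isoform has a higher level than this scale gives.

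**Figure D1:**
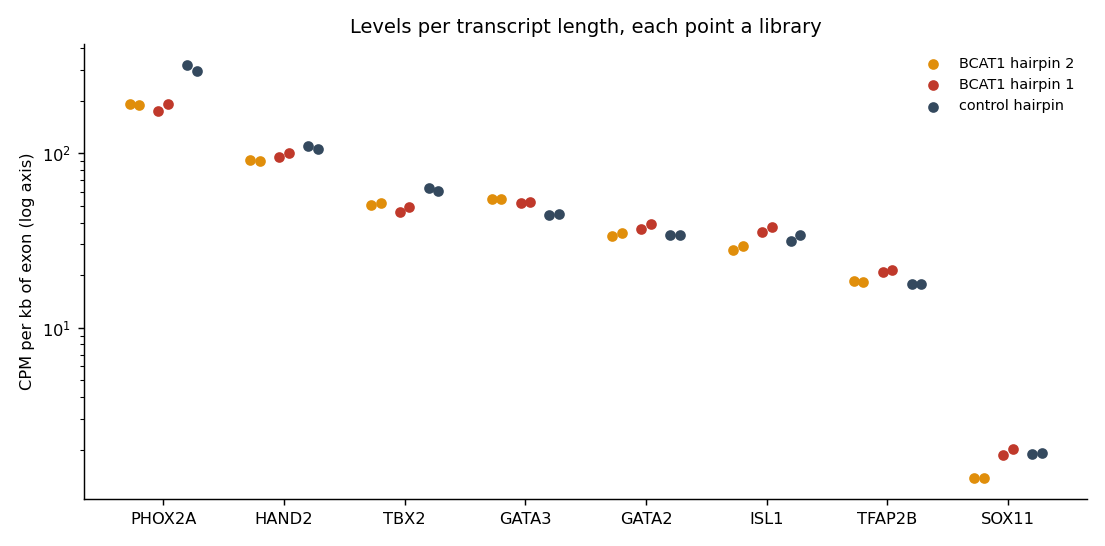
Level of each factor in CPM per kilobase of exon (vertical log axis), each point a library, with hairpin 2, hairpin 1 and control side by side. PHOX2A is the highest and SOX11 the lowest in every group, and GATA3 lies above TBX2 in the knockdown libraries but below it in the control libraries.

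The order held in the knockdown cells with a single exchange. With hairpin 2, GATA3 stood at 54.5 ± 0.34 and TBX2 at 50.9 ± 1 CPM per kb. With hairpin 1 they stood at 52.3 ± 0.63 and 47.8 ± 2.3 CPM per kb, so in both knockdown groups GATA3 took the place above TBX2. The summed CPM of the 8 factors was 1515 and 1524 with hairpin 2, 1520 and 1610 with hairpin 1, and 1871 and 1802 in control cells. PHOX2A took 22.4% and 22.1% of that sum with hairpin 2, 20.4% and 21% with hairpin 1, and 30.6% and 29.1% in control cells. Fewer cells of a kind and less RNA per cell cannot be told apart in such bulk samples.

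The first question was which of the 8 differ when BCAT1 is lowered, taking the mean of the 2 hairpins against the control. Over both hairpins PHOX2A, TBX2, HAND2 and SOX11 fell and GATA3 and TFAP2B rose, while GATA2 and ISL1 were not called. That makes 6 of 8 called, 2 higher and 4 lower, where 50% of all tested genes were called in edgeR's quasi-likelihood test (adjusted p under 0.05, 23.6% higher and 26.4% lower). Their log2 fold changes ran from −0.73 to 0.26 with a median of −0.11, beside −0.01 over all tested genes. Called genes as a whole had a median absolute log2 fold change of 0.46, a size that only PHOX2A among the 8 exceeded. Tested against a minimum fold of 1.5, 1 member passed, PHOX2A, where 1039 of all 18734 tested genes passed.

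Fold changes in this comparison also followed base composition. Across 17459 genes, which are not independent replicates, log2 fold change and transcript GC content had a Spearman correlation of −0.37, and the transcripts of PHOX2A and TBX2 are GC-rich at 66.5% and 61.4%. Values after a per-library correction for GC content and length are therefore given for each factor. After the correction the same correlation was −0.02, 48.2% of genes were called, and 5 of the 8 members were called, 2 higher and 3 lower. PHOX2A then no longer had the largest change over both hairpins. It changed by −0.39 (SE 0.04), beside −0.42 (SE 0.07) for SOX11 and 0.4 (SE 0.03) for GATA3. With hairpin 2 the corrected changes were −0.7 for SOX11 and −0.35 for PHOX2A.

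**Figure D2:**
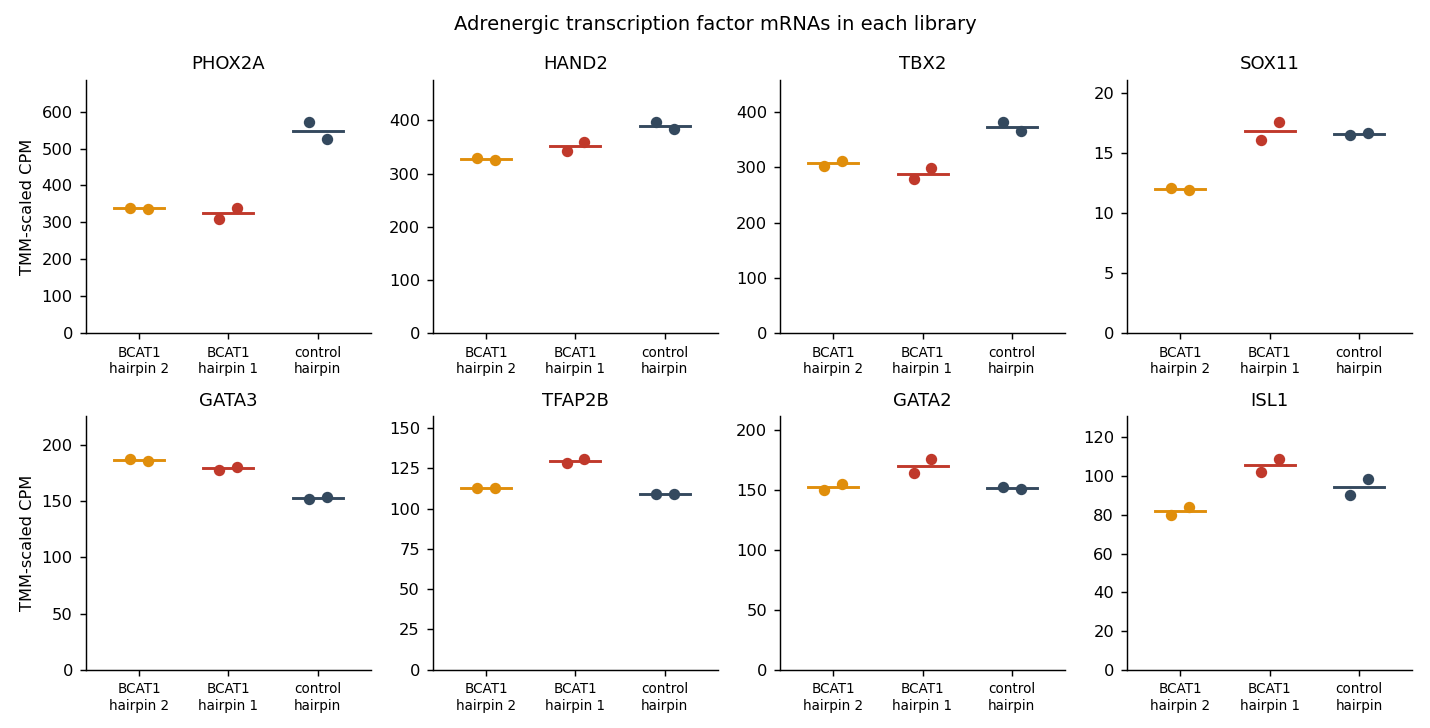
TMM-scaled CPM of each factor (vertical axis from 0), each point a library and each line the mean of 2, for hairpin 2, hairpin 1 and control cells. PHOX2A shows the widest gap, with knockdown libraries from 310 to 339 CPM and control libraries at 525 and 572 CPM.

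PHOX2A (ENSG00000165462, chromosome 11, 72239077 to 72245664, minus strand, hg38), a homeodomain activator of noradrenergic genes, held 339 and 337 CPM with hairpin 2, 310 and 338 CPM with hairpin 1, and 572 and 525 CPM in control cells. All 4 knockdown libraries lay below both controls, and the hairpins overlapped each other. The counts behind these levels were 10982 to 13675 in knockdown libraries and 19421 and 21634 in controls. PHOX2A was 1.66-fold lower over both hairpins (log2 change −0.73, SE 0.05, adjusted p = 8.3e-06, edgeR). Its change was −0.7 (SE 0.06) with hairpin 2 and −0.76 (SE 0.06) with hairpin 1, and the difference between hairpins was 0.06 (SE 0.06, adjusted p = 0.43, edgeR). After correction for GC content and length the fall over both hairpins was −0.39 (SE 0.04, adjusted p = 1.2e-05, edgeR), so the call held at a smaller size. Its exons share 29 bases with INPPL1 on the other strand, a lipid phosphatase gene that stood at 156 to 190 CPM.

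TBX2 (ENSG00000121068, chromosome 17, 61399896 to 61409466, plus strand), a T-box factor known mainly as a repressor, also fell with both hairpins. It stood at 303 and 312 CPM with hairpin 2, 278 and 298 CPM with hairpin 1, and 382 and 365 CPM in control cells. No knockdown library reached the lower control. The change over both hairpins was −0.33 (SE 0.04, adjusted p = 0.00021, edgeR), a 1.26-fold fall. After the GC and length correction it was −0.17 (SE 0.03, adjusted p = 0.0013, edgeR), with −0.1 for hairpin 2 and −0.24 for hairpin 1, both still called. TBX2 shares 28 exonic bases with an antisense RNA, ENSG00000267131, which had 17 to 54 counts per library.

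HAND2 (ENSG00000164107, chromosome 4, 173524969 to 173530229, minus strand), a helix-loop-helix factor needed for sympathetic neurons, differed less. Its levels were 330 and 325 CPM with hairpin 2, 343 and 360 CPM with hairpin 1, and 397 and 383 CPM in control cells. The 3 groups did not overlap, but they lay close together. HAND2 fell by 0.2 on the log2 scale (SE 0.04, adjusted p = 0.0017, edgeR), a 1.15-fold change. The call ended after correction for GC content and length, where the value was 0.01 (SE 0.03, adjusted p = 0.78, edgeR). With hairpin 1 alone the change was −0.15, and it was not called without replicate 1 of hairpin 1 (−0.12) or replicate 1 of the control (−0.13).

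SOX11 (ENSG00000176887, chromosome 2, 5692667 to 5701385, plus strand), a factor of immature neurons, had the fewest reads of the 8, with 464 to 624 counts per library. Its levels were 12.1 and 11.9 CPM with hairpin 2, 16.1 and 17.6 CPM with hairpin 1, and 16.5 and 16.7 CPM in control cells. Hairpin 2 libraries were low, while those of hairpin 1 lay around the controls. With hairpin 2 SOX11 fell 1.38-fold (log2 fold change −0.47, SE 0.09, adjusted p = 0.0026, edgeR), and with hairpin 1 the change was 0.02 (SE 0.09, adjusted p = 0.85, edgeR). The difference between hairpins was −0.49 (SE 0.09, adjusted p = 0.0022, edgeR). The combined change of −0.22 (SE 0.08, adjusted p = 0.041, edgeR) passed in 6 of 15 alternative analyses (adjusted p from 0.00072 to 1), and was lost in 5 of the 6 fits that left out a library, all but that without replicate 2 of hairpin 1. It was −0.42 after correction for GC content and length (SE 0.07, adjusted p = 0.00072, edgeR).

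GATA3 (ENSG00000107485, chromosome 10, 8045378 to 8075203, plus strand), a zinc finger factor needed for sympathetic neurons and their noradrenaline synthesis, rose with both hairpins. It held 188 and 186 CPM with hairpin 2, 178 and 181 CPM with hairpin 1, and 152 and 154 CPM in control cells. Every knockdown library lay above both controls. The rise over both hairpins was 1.2-fold (log2 fold change 0.26, SE 0.03, adjusted p = 0.00025, edgeR). After the GC and length correction it was 0.4 (SE 0.03, adjusted p = 5.1e-06, edgeR). Hairpins differed by 0.06 (SE 0.04, adjusted p = 0.23, edgeR).

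TFAP2B (ENSG00000008196, chromosome 6, 50818723 to 50847613, plus strand), an AP-2 factor of the neural crest, rose with hairpin 1. Its levels were 113 CPM in each hairpin 2 library, 128 and 131 CPM with hairpin 1, and 109 CPM in each control. Hairpin 2 libraries were thus only a little above the controls. The change was 0.05 with hairpin 2 (SE 0.04, adjusted p = 0.31, edgeR) and 0.24 with hairpin 1 (SE 0.04, adjusted p = 0.00088, edgeR), and the hairpins differed by −0.19 (SE 0.04, adjusted p = 0.0034, edgeR). The combined change of 0.15 (SE 0.03, adjusted p = 0.0062, edgeR) was not called after the GC and length correction (0.06, adjusted p = 0.14, edgeR).

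GATA2 (ENSG00000179348, chromosome 3, 128479427 to 128493185, minus strand), a close relative of GATA3, stood at 150 and 155 CPM with hairpin 2, 164 and 176 CPM with hairpin 1, and 152 and 151 CPM in control cells. Hairpin 1 libraries were the high ones, and hairpin 2 libraries overlapped the controls. GATA2 rose with hairpin 1 (0.16, SE 0.05, adjusted p = 0.017, edgeR), while the hairpin 2 change was 0.01 (SE 0.05, adjusted p = 0.85, edgeR). The hairpin 1 call was lost without replicate 2 of hairpin 1 (0.12), without replicate 1 of the control (0.17) and without replicate 2 of the control (0.16). The difference between hairpins, −0.15 (SE 0.05, adjusted p = 0.025, edgeR), was not called without replicate 2 of hairpin 1 (−0.11), replicate 1 of hairpin 2 (−0.13) or replicate 2 of hairpin 2 (−0.17), nor after the GC and length correction (−0.1). Over both hairpins the change of 0.09 (adjusted p = 0.1, edgeR) became a called rise of 0.29 after the GC and length correction (SE 0.04, adjusted p = 0.00011, edgeR). GATA2 was then called higher with each hairpin, by 0.24 with hairpin 2 (adjusted p = 0.001, edgeR) and 0.34 with hairpin 1 (adjusted p = 8.4e-05, edgeR).

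ISL1 (ENSG00000016082, chromosome 5, 51383391 to 51394738, plus strand), a LIM homeodomain factor of sympathetic neuron development, moved in opposite directions with the hairpins. It held 80 and 84.2 CPM with hairpin 2, 102 and 109 CPM with hairpin 1, and 90.3 and 98.3 CPM in control cells. The controls lay between the hairpins with no overlap. ISL1 fell with hairpin 2 (−0.2, SE 0.06, adjusted p = 0.018, edgeR) and rose with hairpin 1 (0.17, SE 0.06, adjusted p = 0.039, edgeR), and the difference between hairpins was −0.36 (SE 0.06, adjusted p = 0.00091, edgeR). The fall with hairpin 2 was not called without replicate 1 of hairpin 2 (−0.17) or replicate 2 of the control (−0.14), and the rise with hairpin 1 was called in 2 of the 6 fits that left out a library, at 0.1 to 0.22. The difference between hairpins passed in all 6 of those fits. After the GC and length correction ISL1 changed by −0.26 with hairpin 2 (adjusted p = 0.0023, edgeR), by 0.16 with hairpin 1 (adjusted p = 0.025, edgeR) and by −0.05 over both (adjusted p = 0.42, edgeR).

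Each hairpin was also set against the control alone, with the same control libraries in both comparisons. With hairpin 2, 6 of 8 members were called, 1 higher and 5 lower, with a median of −0.23, where 49.3% of all genes were called (23.9% higher, 25.4% lower). With hairpin 1, 7 of 8 were called, 4 higher and 3 lower, with a median of 0.09, where 49.1% of all genes were called (24.2% higher, 24.9% lower). The hairpin 1 count was lower without replicate 1 of the control, and so was the number of all genes called. Between the hairpins, 4 members were lower with hairpin 2 and 0 higher, where 46.2% of all genes were called, 22.9% higher and 23.3% lower. The 4 were ISL1, SOX11, TFAP2B and GATA2. Of all genes called with hairpin 2, 38.6% were higher after the GC and length correction and 48.6% without it. With the correction the member counts were 2 higher and 4 lower with hairpin 2 and 4 higher and 2 lower with hairpin 1, where 47.3% of all genes were called with hairpin 2 and 50% with hairpin 1. Between the hairpins, ISL1 (−0.43), TFAP2B (−0.23) and SOX11 (−0.55) were then lower with hairpin 2. TBX2 was higher (0.14, adjusted p = 0.011, edgeR) and GATA2 was not called (adjusted p = 0.075, edgeR), where 51.8% of all genes were called.

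**Figure D3:**
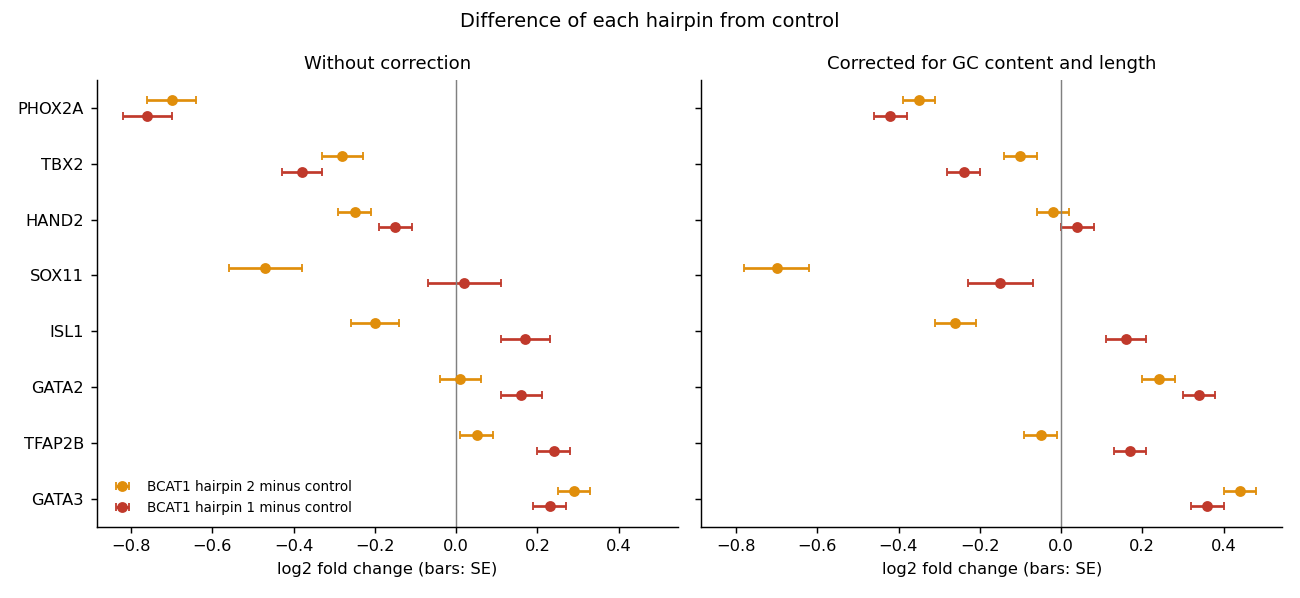
Log2 fold change of each factor with hairpin 2 and hairpin 1 against control (points, with bars of 1 SE), without correction and corrected for GC content and length. PHOX2A and TBX2 lie left of 0 and GATA3 right of 0 for both hairpins in either panel, while the ISL1 points lie on opposite sides of 0.

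Several of these loci carry an RNA on the opposite strand near the start of the factor. HAND2-AS1 (ENSG00000237125, chromosome 4, 173527270 to 173659696, plus strand) starts 2959 bases inside HAND2 and shares 867 exonic bases with it, so reads there are uncertain where strand was not used. It held 155 and 154 CPM with hairpin 2, 223 and 208 CPM with hairpin 1, and 109 and 116 CPM in control cells. All knockdown libraries were above the controls, and hairpin 1 was above hairpin 2. HAND2-AS1 rose by 0.46 with hairpin 2 (SE 0.05, adjusted p = 1e-04, edgeR) and by 0.94 with hairpin 1 (SE 0.05, adjusted p = 2.3e-06, edgeR), while HAND2 changed by −0.25 and −0.15. The ratio of their CPM was 0.469 and 0.475 with hairpin 2, 0.578 and 0.648 with hairpin 1, and 0.275 and 0.302 in control cells. HAND2-AS1 is GC-poor at 41.2%, beside 58.5% for HAND2, and the ratio was not corrected for this. After the GC and length correction HAND2-AS1 changed by −0.07 with hairpin 2 (adjusted p = 0.27, edgeR) and by 0.52 with hairpin 1 (adjusted p = 1.2e-05, edgeR). HAND2 then changed by −0.02 with hairpin 2 (adjusted p = 0.75, edgeR) and by 0.04 with hairpin 1 (adjusted p = 0.39, edgeR), neither called.

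GATA2-AS1, which starts 3973 bases inside GATA2 with no shared exon, held 34.6 and 31.9 CPM with hairpin 2, 21.3 and 22.7 CPM with hairpin 1, and 26.4 and 22.9 CPM in control cells. ISL1-DT, a divergent RNA that starts 59 bases before ISL1, held 25.1 and 22.4 CPM with hairpin 2, 16.2 and 19 CPM with hairpin 1, and 18.2 and 17.4 CPM in control cells. Both were high with hairpin 2, where GATA2 and ISL1 themselves were lower than with hairpin 1. GATA2-AS1 rose by 0.43 with hairpin 2 (SE 0.09, adjusted p = 0.0042, edgeR) and was 0.6 higher with hairpin 2 than with hairpin 1 (SE 0.09, adjusted p = 0.00083, edgeR). The corresponding values of ISL1-DT were 0.41 (SE 0.1, adjusted p = 0.0094, edgeR) and 0.43 (SE 0.1, adjusted p = 0.0082, edgeR), and its rise with hairpin 2 was 0.07 after the GC and length correction (adjusted p = 0.62, edgeR). That rise was not called without replicate 1 of hairpin 2 (0.32), nor was the difference between hairpins without replicate 1 of hairpin 1 (0.32) or replicate 1 of hairpin 2 (0.35). ENSG00000267131, an antisense RNA at TBX2, was 1.7 lower on the log2 scale with hairpin 2 than with hairpin 1 (SE 0.32, adjusted p = 0.0026, edgeR). LINC01248 and ENSG00000230090, both near SOX11, and ENSG00000242540, whose exons overlap SOX11 by 74 bases, had at most 7 counts in any library and were not tested.

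**Figure D4:**
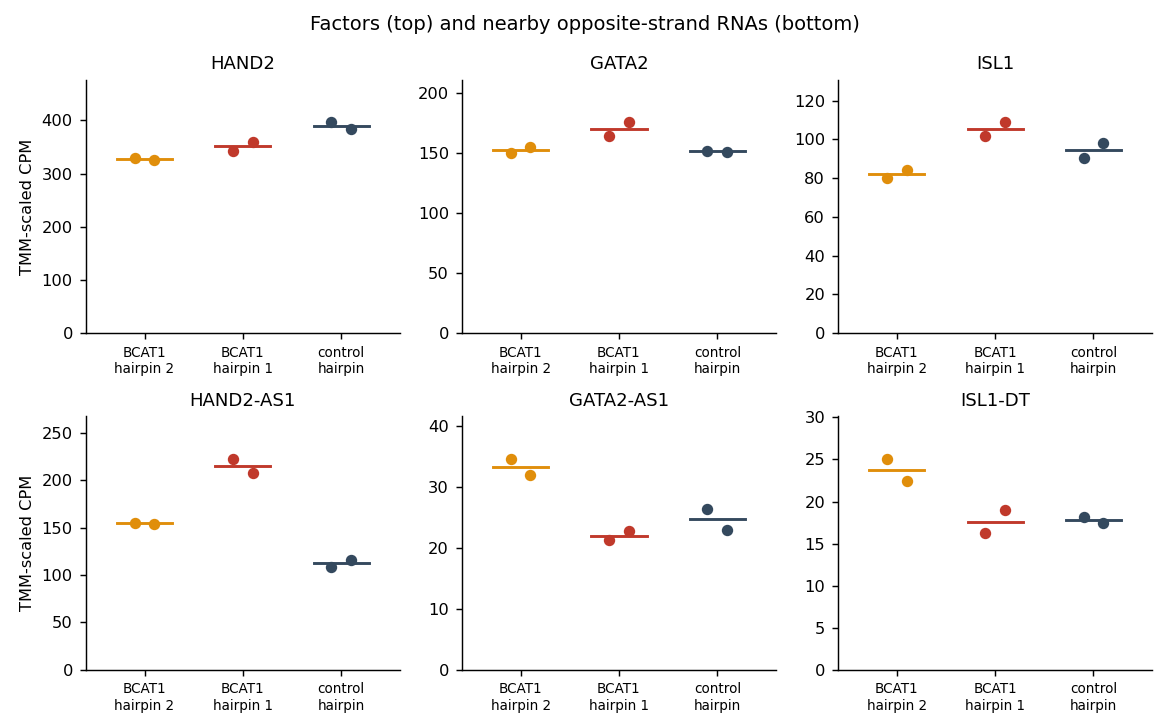
TMM-scaled CPM (vertical axis from 0) of HAND2, GATA2 and ISL1 in the top row and of HAND2-AS1, GATA2-AS1 and ISL1-DT in the bottom row, each point a library and each line the mean of 2. HAND2-AS1 is lowest in control cells, and GATA2-AS1 and ISL1-DT are highest with hairpin 2.

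By the distance between centred log2 CPM profiles over the 6 libraries, the closest pair among the 8 was GATA2 and TFAP2B, 0.041 apart (root mean square, log2 units). The single gene most like each factor, among named genes of at least 5 CPM, was CARHSP1 for PHOX2A (0.041), TXNL4A for HAND2 (0.011), DNM2 for GATA2 (0.022) and ATG12 for GATA3 (0.015). It was BUB1 for ISL1 (0.018), HDAC5 for TBX2 (0.016), VBP1 for TFAP2B (0.018) and SUV39H1 for SOX11 (0.013). CARHSP1 was 0.78 lower over both hairpins and HDAC5 0.34 lower, as 2 examples of genes with the same course as PHOX2A and TBX2.

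Paralogs of the factors were examined because relatives can bind the same DNA motif. Of 15 listed, 10 were tested, and over both hairpins 5 rose and 2 fell, a called share of 70% beside 50% of all genes (median 0.35). TBX3, the closest relative of TBX2 and likewise a repressor, held 172 and 168 CPM with hairpin 2, 225 and 215 CPM with hairpin 1, and 106 and 110 CPM in control cells. All knockdown libraries lay above the controls, and TBX3 rose 1.79-fold (log2 fold change 0.84, SE 0.04, adjusted p = 2.4e-06, edgeR), where TBX2 had fallen 1.26-fold. The rise of TBX3 was 0.86 after the GC and length correction. GATA6, a GATA factor better known from heart and gut, rose by 0.49 (SE 0.09) and SOX4, a relative of SOX11, by 0.22 (SE 0.04), while SOX12, of the same SOX group, fell by 0.46 (SE 0.06). Their edgeR adjusted p-values were 0.0016 for GATA6, 0.00099 for SOX4 and 0.00046 for SOX12. SOX12 changed by −0.77 with hairpin 2 (adjusted p = 7e-05, edgeR) and by −0.14 with hairpin 1, which was not called (adjusted p = 0.16, edgeR). GATA6 changed by 0.23 with hairpin 2, not called (adjusted p = 0.08, edgeR), and by 0.74 with hairpin 1. After the GC and length correction the combined fall of SOX12 was −0.23, with 0.06 for hairpin 1. The hairpin 2 change of GATA6 was then 0.4 and called (adjusted p = 0.0052, edgeR).

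Among 21 other transcription factors of the adrenergic state, 17 were tested and over both hairpins 7 rose, 6 fell and 4 were not called (76.5% called, beside 50% of all genes, median 0.06). EYA1, a transcriptional cofactor, rose 1.64-fold and KLF7, a Krüppel-like factor of neurons, rose 1.5-fold, with 60.3 ± 2.3 CPM of EYA1 under hairpin 1 against 27.4 ± 1.3 in control cells (SD, n = 2). After the GC and length correction the change over both hairpins was 0.4 for EYA1 and 0.28 for KLF7, and the hairpin 2 change of EYA1, 0.3 without the correction, was −0.07 and no longer called (adjusted p = 0.39, edgeR). INSM2, a zinc finger protein of neuroendocrine cells, held 107 and 102 CPM with hairpin 2, 286 and 288 CPM with hairpin 1, and 238 and 243 CPM in control cells. It fell 2.3-fold with hairpin 2 and rose 1.19-fold with hairpin 1, and its combined change of −0.47 was −0.25 after the correction. TLX2, a homeobox factor of the peripheral nervous system, held 509 ± 1.9 CPM with hairpin 2, 292 ± 1.1 CPM with hairpin 1 and 478 ± 29 CPM in control cells. Its combined change of −0.31 was 0 after the GC and length correction, as the mean of opposite changes. These were 0.41 with hairpin 2 (adjusted p = 5.8e-06, edgeR) and −0.41 with hairpin 1 (adjusted p = 4.4e-06, edgeR), against 0.09 (not called) and −0.71 without the correction.

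Partner proteins of the factors were split. Of 13 tested over both hairpins, 4 rose, 4 fell and 5 were not called (61.5% called, beside 50% of all genes, median 0.07). CITED2, a coactivator of AP-2 factors, rose 1.92-fold to 30.8 and 30.2 CPM with hairpin 2 and 47.1 and 51.2 CPM with hairpin 1, against 20.4 and 19.9 CPM in control cells. CITED4, of the same family, fell by 0.96 on the log2 scale (SE 0.13), and the combined change was −0.56 after the GC and length correction. Without the correction it changed by −1.72 with hairpin 1 and by −0.2 with hairpin 2, which was not called (adjusted p = 0.31, edgeR). With the correction the changes were −1.29 with hairpin 1 and 0.16 with hairpin 2, again not called (adjusted p = 0.33, edgeR). TCF3 and TCF4 encode E proteins, which pair with HAND2 to bind DNA. TCF3 fell by 0.41 (SE 0.04, adjusted p = 5.4e-05, edgeR), or by 0.26 after the GC and length correction, and TCF4 changed by 0.31 (SE 0.04, adjusted p = 0.00015, edgeR), a rise that turned to −0.21 after the GC and length correction (adjusted p = 0.001, edgeR).

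Noradrenergic effector genes, which sympathetic transcription factors control, separated the hairpins. Of 15 tested, 1 rose and 8 fell with hairpin 2 (median −0.41), and 10 rose and 4 fell with hairpin 1 (median 0.42), where 49.3% of all genes were called with hairpin 2 and 49.1% with hairpin 1. Between the hairpins 10 were lower and 2 higher with hairpin 2 (80% called, beside 46.2% of all genes). SLC6A2, the noradrenaline transporter, held 17.6 and 19.5 CPM with hairpin 2, 76 and 81 CPM with hairpin 1, and 20.7 and 19.8 CPM in control cells. CHGA, a core protein of secretory granules, held 52.1 and 60.4 CPM with hairpin 2, 150 and 170 CPM with hairpin 1, and 184 and 207 CPM in control cells. Its fall with hairpin 1, −0.29, was −0.04 after the GC and length correction and no longer called (adjusted p = 0.76, edgeR). DBH, the enzyme that makes noradrenaline from dopamine and a gene singled out after its values were seen, stood at 15.1 CPM with hairpin 2, 76.3 CPM with hairpin 1 and 37.6 CPM in control cells.

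DDC and RET fell with both hairpins, as PHOX2A did. DDC, the decarboxylase that makes dopamine, held 656 and 643 CPM with hairpin 2, 671 and 667 CPM with hairpin 1, and 946 and 922 CPM in control cells, a 1.42-fold fall (log2 fold change −0.5, SE 0.03, adjusted p = 7.2e-06, edgeR). RET, the receptor of GDNF family ligands, held 608 and 601 CPM with hairpin 2, 456 and 462 CPM with hairpin 1, and 966 and 927 CPM in control cells, a 1.8-fold fall (−0.85, SE 0.03, adjusted p = 1.4e-06, edgeR). Neither gene had a knockdown library near the control range.

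Transcription factors of the mesenchymal state did not move as a block. Of 26 tested over both hairpins, 8 rose, 9 fell and 9 were not called (65.4% called, beside 50% of all genes, median −0.02), and the summed level of all 27 was 1290 and 1310 CPM with hairpin 2, 1190 and 1210 CPM with hairpin 1, and 1360 and 1370 CPM in control cells. AEBP1, a transcriptional repressor of stromal cells, fell 2.38-fold and ID1, an inhibitor of helix-loop-helix proteins, fell 1.32-fold. MAFF, a small MAF protein, fell 1.47-fold, and NR3C1, the glucocorticoid receptor, rose 1.46-fold. The log2 change of MAFF was −0.15 with hairpin 2, not called (adjusted p = 0.15, edgeR), and −0.96 with hairpin 1 (adjusted p = 2.4e-05, edgeR). That of NR3C1 was 0.55 with each hairpin. After the GC and length correction the log2 change over both hairpins was 0.18 for NR3C1, against 0.55 without it, and −0.14 for ID1, against −0.41. The NR3C1 rise with hairpin 2 was then 0.1 and not called (adjusted p = 0.071, edgeR). PRRX1 and RUNX2, singled out after their values were seen as factors known to drive this state, averaged 0.24 to 0.782 and 0.124 to 1.18 CPM across groups. MEOX2, also singled out afterwards, had 0 counts in every library. Other listed factors were far more abundant, such as FOSL2, WWTR1 and SNAI2 (likewise singled out) at 157, 74 and 57.7 CPM on average. RUNX2 changed by 1.87 with hairpin 2 (adjusted p = 0.0028, edgeR) and by −1.33 with hairpin 1 (adjusted p = 0.049, edgeR), at 3 to 52 counts per library. PRRX1 changed by 0.07 with hairpin 2, not called, and by 1.67 with hairpin 1 (adjusted p = 0.029, edgeR).

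**Figure D5:**
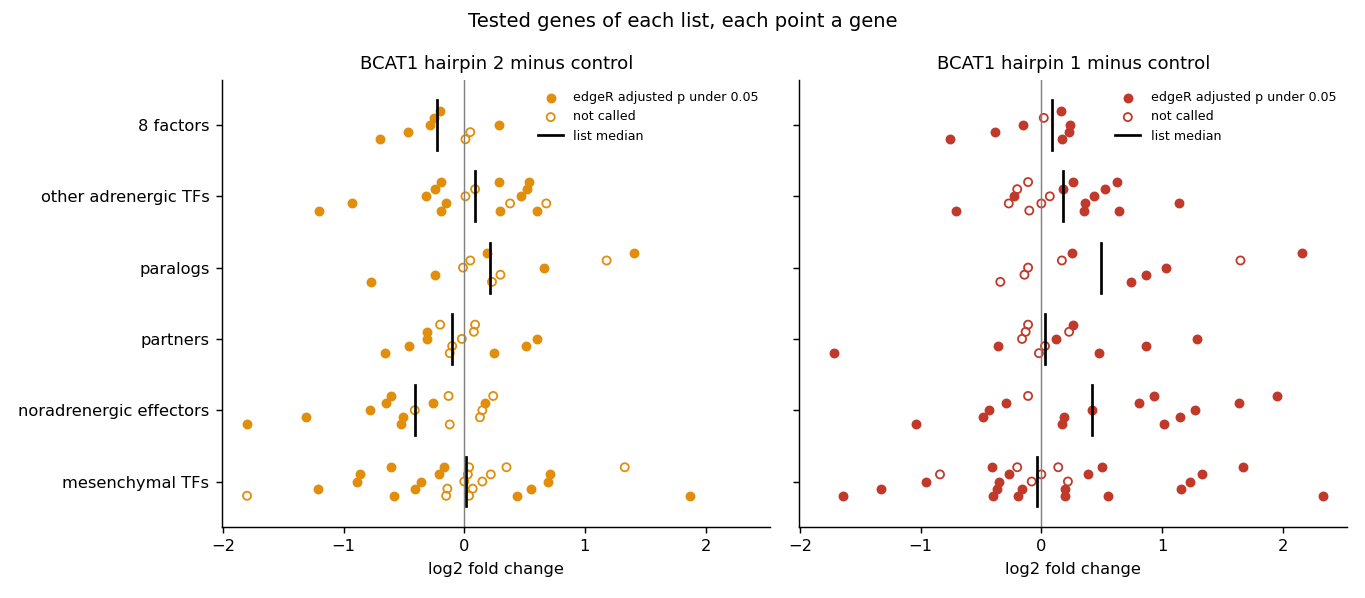
Log2 fold change against control of every tested gene of each list (horizontal axis), for hairpin 2 and hairpin 1. Filled points passed edgeR's test, open points did not, and black lines mark the list medians. Medians of the noradrenergic effectors lie at −0.41 with hairpin 2 and 0.42 with hairpin 1, those of the 8 factors at −0.23 and 0.09.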

How the data were processed

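The deposited table holds raw whole-number counts by Ensembl ID. The submitters' processing notes list HISAT2 version 2.2.0, StringTie and hg38. For annotation release, counting options and strand, the answer is: not given in the sources used here. Total RNA was extracted with TRIzol and made into TruSeq libraries, per the labels' protocols. Columns were matched to sample titles. Coordinates, exon lengths and GC content came from GENCODE 29 (GRCh38), promoter windows from RefSeq (GRCh38.p14).

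The tests used edgeR 4.0.16 in R 4.3.3: filterByExpr (minimum count 10), TMM, and glmQLFit with a term per group over all 6 libraries, two-sided, with Benjamini-Hochberg adjustment over 18734 genes and a threshold of 0.05. The script was tested on simulated counts. Alternatives were RLE size factors, no filter and a stricter filter, DESeq2 1.42.0, limma 3.58.1 (voom), a replicate block, each library left out in turn, fits on the compared groups alone, a minimum fold of 1.5 and the correction below. SE was log2 fold change divided by the root of F. Replicates may be technical, and the p-values then reflect nothing beyond the spread among these 6 libraries. Replicates of a group differed by more than sampling noise (mean chi-square per gene 5.87 to 8.63, where noise gives 1).

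The members and gene lists were chosen with earlier results of these data known. Named were the 8 members, BCAT1, MYCN, genes starting within 5000 bases of a member or sharing its exons, the 4 genes of each list with the smallest combined p among those of mean CPM at least 5, and the nearest profile of each member. Genes outside this rule are marked. The GC and length correction subtracted, per library, a spline trend (5 degrees of freedom each) fitted on log2 CPM deviations with a prior count of 2.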

Additional observations from a re-analysis of the deposited data

Results flagged for a closer look

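The effects of the hairpins against control differed, by the test of hairpin 2 against hairpin 1 (edgeR adjusted p under 0.05), for 4 members. The differences on the log2 scale, hairpin 2 minus hairpin 1, were −0.15 for GATA2 (adjusted p = 0.025, edgeR), −0.36 for ISL1, −0.19 for TFAP2B and −0.49 for SOX11. Of all tested genes 46.2% were called in this comparison. After the GC and length correction GATA2 was not called (adjusted p = 0.075, edgeR), while TBX2 was, at 0.14 (adjusted p = 0.011, edgeR). Of all genes 51.8% were then called.

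Neighbouring genes differed as well, by −0.25 for INPPL1, −0.48 for HAND2-AS1, 0.6 for GATA2-AS1, 0.43 for ISL1-DT and −1.7 for ENSG00000267131. Among the other transcription factors and partners the differences were −1.46 for INSM2, −0.84 for EYA1, 0.8 for TLX2, −0.37 for TBX3, −0.63 for SOX12, −0.5 for GATA6, −0.69 for CITED2, 0.39 for TCF4 and 1.52 for CITED4. Among the effectors they were 0.4 for RET, −1.51 for CHGA and −2.08 for SLC6A2, and among the mesenchymal factors 0.78 for AEBP1 and 0.81 for MAFF. BCAT1 itself was 1.03 higher with hairpin 2 than with hairpin 1, and its part in these differences was not tested.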

How the results depend on the processing

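With 2 libraries a group, changes as small as most of those seen here were called in some fits and not in others. A fold threshold of 1.5 left 1039 called genes and 1 member over both hairpins, 1397 and 0 with hairpin 2, 1769 and 1 with hairpin 1, and 1774 and 0 between hairpins. Leaving out a library in turn gave 4 to 6 called members with hairpin 1. Over both hairpins that threshold left 0 called genes among the other adrenergic factors, 2 paralogs, 2 partners, 4 effectors and 1 mesenchymal factor. Under the remaining alternatives the counts of called genes and members stayed within 1.5 times.

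Correction for GC content and length turned HAND2 to 0.01 over both hairpins and 0.04 with hairpin 1, SOX11 to −0.15 with hairpin 1, and TFAP2B to −0.05 with hairpin 2. It turned TCF4 to −0.21, TLX2 to 0, INPPL1 to 0 and ISL1-DT to −0.09 over both hairpins, INPPL1 to 0.11 and GATA2-AS1 to 0.04 with hairpin 1, and HAND2-AS1 to −0.07 with hairpin 2. The same values came with the replicate block added. INPPL1 with hairpin 1 was also 0 with RLE size factors, with the stricter filter and in DESeq2. The cause was not tested.

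Values near 0 changed sign when a library was left out: ISL1 over both hairpins (−0.08 to 0.04), PHOX2A between hairpins (0 to 0.12), SOX11 with hairpin 1 (−0.03 to 0.09), GATA2 with hairpin 2 (−0.01 to 0.03), INPPL1 with hairpin 1 (−0.03 to 0.02) and ISL1-DT with hairpin 1 (−0.13 to 0.09).

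Same-numbered libraries deviated from their group means with correlations of −0.04 to 0, so no deviation shared by replicate number was seen. This cannot tell whether same-numbered libraries were prepared together, which the labels do not state. The replicate block gave 9000 called genes and 5 called members over both hairpins.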
